A study of Mus musculus with 24 samples.

Results

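Albumin and 7 other plasma carrier proteins are described here at the level of liver RNA: Alb, Trf, Ttr, Ahsg, Fetub, Ambp, Rbp4 and Hpx. These 8 genes were taken by symbol from a table of 35974 gene symbols and followed across 24 libraries of mouse liver, strain C3H/HeJ. Wild-type (WT) and transgenic (TGA) animals gave 12 libraries each, and each library title carries a number from 1 to 4 and a class of 2, 4 or 8, so that every one of the 6 groups of genotype and class holds 4 libraries. The labels do not name the transgene or its promoter, the age of the animals or any agent given, and they do not define the class. From the series title, which concerns polyploid hepatocytes, class may be read as DNA content. They also do not state that the libraries of a group come from separate animals, so the spread behind each p-value is that between libraries and could be technical.

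Hepatocytes make these proteins and secrete them into blood. Albumin carries fatty acids, bilirubin and drugs and sets the osmotic pressure of plasma, transferrin (Trf) carries iron, and hemopexin (Hpx) binds free heme. Transthyretin (Ttr) carries thyroid hormone and holds the retinol carrier Rbp4 in a complex that is too large to be lost through the kidney. Fetuin-A (Ahsg) binds calcium phosphate, fetuin-B (Fetub) is its neighbour and relative and inhibits a protease of the egg coat, and Ambp encodes a precursor that is cut into the small carrier alpha-1-microglobulin and the protease inhibitor bikunin. Their genes are classic targets of liver transcription factors such as HNF4, C/EBP and FOXA.

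The upstream sequences of 4 genes are shown because Alb and Ahsg are the members whose genotype groups separated most often, Fetub lies beside Ahsg, and Afp, the fetal relative of albumin, lies beside Alb on chromosome 5. Each is the 250 bases before the start site, 5′ to 3′, from RefSeq on build GRCm38.p6, on the plus strand: Alb at chr5:90460620-90460869, Afp at chr5:90490464-90490713, Ahsg at chr16:22891765-22892014 and Fetub at chr16:22918132-22918381. Capitals mark matches on either strand to the motifs searched.
Alb: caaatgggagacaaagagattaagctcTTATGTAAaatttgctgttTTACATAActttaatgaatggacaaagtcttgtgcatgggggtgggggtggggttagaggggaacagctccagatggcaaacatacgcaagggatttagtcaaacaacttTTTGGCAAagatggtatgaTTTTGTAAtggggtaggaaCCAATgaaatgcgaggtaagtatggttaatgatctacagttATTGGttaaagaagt
Afp: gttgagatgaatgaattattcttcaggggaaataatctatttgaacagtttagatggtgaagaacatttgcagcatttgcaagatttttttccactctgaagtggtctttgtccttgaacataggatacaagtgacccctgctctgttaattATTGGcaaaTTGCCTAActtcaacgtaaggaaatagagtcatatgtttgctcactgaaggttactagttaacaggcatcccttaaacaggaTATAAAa
Ahsg: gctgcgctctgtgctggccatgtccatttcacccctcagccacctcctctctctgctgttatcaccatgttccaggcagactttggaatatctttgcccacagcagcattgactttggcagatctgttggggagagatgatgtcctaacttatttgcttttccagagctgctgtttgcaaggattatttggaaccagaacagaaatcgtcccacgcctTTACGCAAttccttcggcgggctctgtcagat
Fetub: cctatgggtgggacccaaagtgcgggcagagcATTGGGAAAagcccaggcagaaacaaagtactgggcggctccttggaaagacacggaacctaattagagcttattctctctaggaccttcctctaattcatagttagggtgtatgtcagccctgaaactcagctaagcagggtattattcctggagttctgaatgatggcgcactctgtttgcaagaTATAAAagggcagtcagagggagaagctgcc

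The motifs were TATAAA, a core promoter element, and TTNNGNAA, for C/EBP, as well as CAAAGTCCA for HNF4, TGTTTAC for FOXA, TTCCNGGAA for STAT factors, and CCAAT. In the window of Alb, TTNNGNAA began at 223, 204, 94 and 75 bases before the start. The window of Afp held 1 match to TTNNGNAA, at 89 bases, and TATAAA at 7 bases before its start. Ahsg held TTNNGNAA at 32 bases, where the motif matched on both strands. Fetub held TATAAA at 31 bases and TTNNGNAA at 217 bases, the latter overlapping a CCAAT match on the other strand. RefSeq windows at the gene start were searched for 6 of the 8 members. For Trf no window was at hand, and Ttr was left out of the search. Among these 6, TTNNGNAA was found in 5, CCAAT in 5, TATAAA in Fetub, TGTTTAC in Rbp4, and CAAAGTCCA and TTCCNGGAA in 0. Fetub and Rbp4 have a second RefSeq start, whose window held TGTTTAC in Fetub and TATAAA in Rbp4. Of 32851 windows of the same length, 36.8% held TTNNGNAA, 33.8% CCAAT, 12.4% TATAAA, 3.17% TGTTTAC, 0.384% CAAAGTCCA and 0.913% TTCCNGGAA. A match describes the letters of a window and is not a measured site.

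All values are log2(normalised count + 1). The deposited values were taken as natural logs of quantile-normalised counts, a unit that is inferred and not stated. Sequencing depth cannot be read from such values, and levels of different members are not compared because they are not corrected for transcript length. The libraries had between 1624 and 15147 genes above 0. A listed 0 cannot be read as no expression, since Actb was at 0 in 14 libraries and Gapdh in 19, so members are given library by library and not as a mean with its SD. Of the 192 values of the members, 61 were 0 (31.8%), against 54.1% for all genes tested. As a check of the tissue, 12 hepatocyte genes were read, and only Apoa1, Cyp2e1 and Pck1 were above 0 in all 12 WT and all 12 TGA libraries. The others ranged from Serpina1a, above 0 in 2 WT and 4 TGA libraries, to Cps1, in 7 and 12. Markers of other liver and blood cells were each above 0 in at most 5 WT and 5 TGA libraries, as for Reln, which is more than for Serpina1a. The highest summed log2 value of these other lists was in WT for each but the cholangiocyte and erythroid genes. The 8 Kupffer cell and macrophage genes summed to 0 to 15.4 in WT and 0 to 4.93 in TGA libraries (3 of 8, Vsig4, Cd5l and C1qa, at 0 throughout), and the 8 endothelial genes to 0 to 18.9 and 0 to 6.79 (1 of 8, Clec4g, at 0 throughout). The 7 stellate cell and fibroblast genes summed to 0 to 11.6 and 0 to 7.99, with Col1a1 above 0 in 4 WT and 0 TGA libraries, and the 6 cholangiocyte genes to 0 to 3.81 and 0 to 6.84 (Spp1 at 0 throughout). The 6 lymphocyte genes summed to 0 to 6.63 and 0 to 4.95 and the 4 neutrophil genes to 0 to 5.45 in WT and to 0 in every TGA library (2 of each list at 0 throughout), and of the 5 erythroid genes in the table the 4 globin genes were at 0 throughout (sums of 0 to 0.41 in WT and 0 to 1.77 in TGA). Across these lists 3 genes were tested, 2 endothelial and 1 of stellate cells, and 0 passed in the genotype comparison (limma, 0 at an unadjusted p under 0.05). The part of these cells in the values of the members was not tested.

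**Figure D1:**
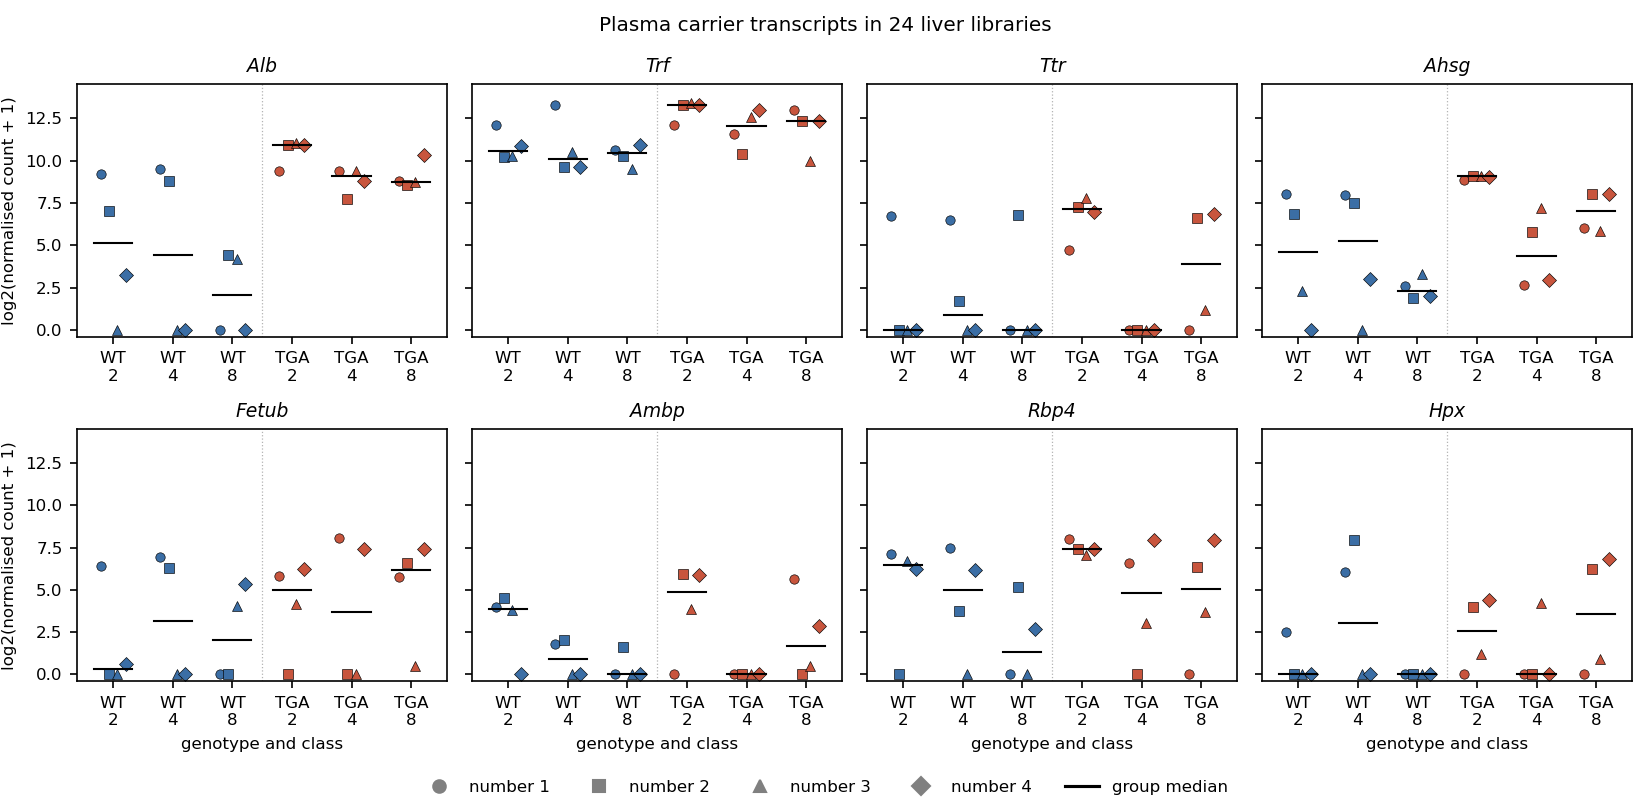
Values of the 8 members in each library, as log2(normalised count + 1) on the vertical axis, by genotype and class on the horizontal axis (4 libraries per group, the marker shape gives the number, the line is the group median). Trf was above 0 in 24 of 24 libraries, and Alb was above 0 in every TGA library but at 0 in 5 WT libraries.

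All 8 members had a higher mean in TGA than in WT over the 3 classes, as did 54.7% of all genes tested. Of the 8 members, 2 passed the test. Alb rose by 5.64 and Trf by 1.61 on the log2 scale (limma, Benjamini-Hochberg adjusted p = 8.2e-05 and 0.0222). These 2 of 8 compare with 0.492% of the 4875 genes tested in either direction and 0.246% higher, and the median difference was 1.66 over the members and 0.11 over all genes tested. The other 6 members had differences between 0.58 (Ambp) and 3.09 (Ahsg) that did not pass. No member was lower in TGA under any of the 17 or 18 alternatives run for it. In liver tissue, fewer hepatocytes and less RNA per hepatocyte cannot be told apart. The 12 hepatocyte markers that are not members had a summed log2 value of 21.9 to 89.4 in WT and 43.95 to 97.0 in TGA libraries. Of these 12, Apoa1 (3.71) and the urea cycle enzyme gene Cps1 (4.66) rose (limma adjusted p of 2.73e-11 and 0.00222, but 0.0836 for Apoa1 with a prior that does not depend on the mean and 0.11 for Cps1 with no filter). All 12 of these markers had differences above 0, against 54.7% of all genes tested, with a median of 1.55. The part of the markers in the values of the members was not tested.

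Albumin showed the widest gap. In WT class 2, numbers 1 to 4 stood at 9.20, 7.01, 0 and 3.22, in WT class 4 at 9.53, 8.81, 0 and 0, and in WT class 8 at 0, 4.44, 4.17 and 0. The TGA libraries of class 2 stood at 9.36, 10.94, 11.05 and 10.94, those of class 4 at 9.38, 7.76, 9.41 and 8.79, and those of class 8 at 8.79, 8.54, 8.73 and 10.35. Alb was above 0 in every TGA library, whereas the WT libraries ran from a listed 0 to values inside the TGA range, the highest being those of numbers 1 and 2. Alb ranked between 12 and 65 from the top of the TGA libraries, and between 24 and 1589 in the 7 WT libraries where it was above 0.

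Averaged over the 3 classes, the WT numbers 1 to 4 had Alb at 6.24, 6.75, 1.39 and 1.07 and the TGA numbers at 9.18, 9.08, 9.73 and 10.02. The 4 TGA means lay above the 4 WT means without overlap, as did those of 0.944% of the genes tested. The difference of 5.64 had an SE of 0.98 in limma, which shares its spread between genes, and of 1.54 from the spread of Alb alone. A two-sided exact permutation test gave p = 0.0286, the smallest that 4 against 4 allows. The call was lost with a prior that does not depend on the mean (adjusted p = 0.0621), and the difference ranged from 4.09 to 7.59 over 18 alternatives.

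Within single classes Alb did not pass the test over all genes. The difference was 5.71 in class 2 (95% interval 2.27 to 9.16, limma adjusted p = 0.283), 4.25 in class 4 (0.81 to 7.69, adjusted p = 1) and 6.95 in class 8 (3.50 to 10.39, adjusted p = 0.12). TGA and WT did not overlap for Alb in class 2 and class 8. In class 2 the lowest TGA value was 9.36 and the highest WT value 9.20. TGA and WT overlapped for Alb in class 4 through WT numbers 1 and 2. Of genes tested, 1.09% in class 2, 0.041% in class 4 and 1.62% in class 8 had TGA above WT without overlap. The exact permutation p of Alb was 0.0286 in classes 2 and 8 and 0.343 in class 4. In class 8 the call was gained without WT number 2 (adjusted p = 0.0483) or without WT number 3 (0.0469), and in class 2 without WT number 1 (0.0223). In these settings 14, 2 and 50 of all genes tested passed, in place of 1, 1 and 5.

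Transferrin was the one member above 0 in all 24 libraries. WT class 2 stood at 12.08, 10.23, 10.28 and 10.87, WT class 4 at 13.27, 9.64, 10.52 and 9.59, and WT class 8 at 10.61, 10.28, 9.53 and 10.91. TGA class 2 stood at 12.08, 13.27, 13.42 and 13.27, TGA class 4 at 11.58, 10.37, 12.56 and 12.98, and TGA class 8 at 12.98, 12.32, 9.98 and 12.32. WT number 1 was high in classes 2 and 4, and TGA number 2 of class 4 and number 3 of class 8 lay in the range of the other WT libraries. Trf ranked between 4 and 10 from the top of every TGA library and between 6 and 19 in WT.

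Over the 3 classes the Trf means were 11.99, 10.05, 10.11 and 10.46 in WT and 12.22, 11.99, 11.99 and 12.86 in TGA. WT number 1 reached the level of TGA numbers 2 and 3, so the genotypes overlapped, and the exact permutation test gave p = 0.0857. The limma call of 1.61 (SE 0.40, or 0.50 from the spread of Trf alone) was lost without WT number 2, 3 or 4 or TGA number 4 (adjusted p of 0.102, 0.147, 0.128 and 0.237). It was also lost with a filter at 12 libraries (0.0601), a pseudocount of 10 (0.132) and a prior that does not depend on the mean (0.463). Within classes the differences were 2.15, 1.12 and 1.56 in classes 2, 4 and 8, with adjusted p of 0.297, 1 and 0.455, and without WT number 1 that of class 2 was 2.55 and passed (0.0394).

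**Figure D2:**
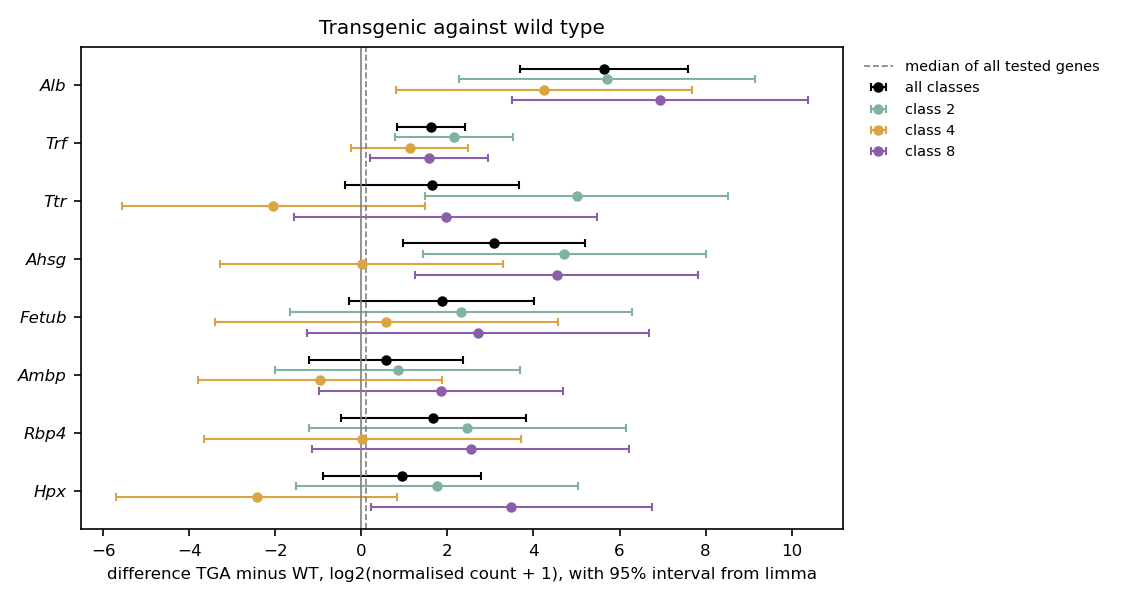
Difference TGA minus WT of each member on the horizontal axis, in log2(normalised count + 1), over all classes (black) and in each class (colours), with 95% intervals from limma, and a dashed line at the median of all genes tested (0.11). The interval of Alb lies above 0 in all 4 rows, and those of Ttr, Fetub, Ambp, Rbp4 and Hpx over all classes include 0. The intervals are not adjusted for the number of genes tested.

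The fetuins lie side by side on chromosome 16, and whether their differences differ from each other was not tested. Ahsg was above 0 in all 12 TGA and in 10 of 12 WT libraries. In WT it stood at 8.06, 6.85, 2.30 and 0 in class 2, at 7.99, 7.52, 0 and 2.99 in class 4, and at 2.58, 1.86, 3.29 and 2.01 in class 8. In TGA it stood at 8.86, 9.08, 9.08 and 9.06 in class 2, at 2.67, 5.77, 7.18 and 2.92 in class 4, and at 6.02, 8.01, 5.86 and 8.01 in class 8. The 4 TGA libraries of class 2 lay close together and above all 4 WT libraries, and in class 8 the groups did not overlap either.

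The TGA minus WT difference of Ahsg was 4.72 in class 2 (95% interval 1.42 to 8.01), 0.01 in class 4 (-3.29 to 3.30) and 4.54 in class 8 (1.25 to 7.83). None of these passed over all genes (limma adjusted p of 0.353, 1 and 0.343), and the exact permutation p was 0.0286 in classes 2 and 8. Alb and Ahsg were the 2 members without overlap in each of these classes, against 1.09% of all genes tested in class 2 and 1.62% in class 8. Over all classes the difference of Ahsg was 3.09 (SE 1.07, adjusted p = 0.286), and it passed without WT number 1 (3.89, adjusted p = 0.0339) and when the 4 libraries that had more than 7000 genes above 0 were left out (3.97, adjusted p = 0.0455), settings in which 95 and 84 of all genes tested passed in place of 24.

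Fetub was above 0 in 6 WT and 9 TGA libraries. WT class 2 stood at 6.38, 0, 0 and 0.60, WT class 4 at 6.93, 6.26, 0 and 0, and WT class 8 at 0, 0, 4.02 and 5.37. TGA class 2 stood at 5.81, 0, 4.18 and 6.25, TGA class 4 at 8.09, 0, 0 and 7.43, and TGA class 8 at 5.75, 6.59, 0.48 and 7.41. TGA numbers 1 and 4 were high in every class, and the genotypes overlapped in each class. The difference over all classes was 1.87 (SE 1.09, adjusted p = 0.587).

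Transthyretin was above 0 in 11 libraries. Its partner Rbp4 was above 0 in all 11 of them and in 7 more, and Alb, Ahsg and Trf were also above 0 in all 11, so this is not particular to the partners. In WT, Ttr stood at 6.74, 0, 0 and 0 in class 2, at 6.47, 1.72, 0 and 0 in class 4, and at 0, 6.81, 0 and 0 in class 8. TGA class 2 stood at 4.72, 7.25, 7.79 and 6.99, TGA class 4 at 0 in all 4 libraries, and TGA class 8 at 0, 6.63, 1.18 and 6.85. Ttr was thus above 0 in the full TGA class 2 group and in 1 of 4 WT class 2 libraries, where number 1 reached the TGA range.

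The TGA minus WT difference of Ttr was 5.01 in class 2 (95% interval 1.49 to 8.53, adjusted p = 0.358), and without WT number 1 it was 6.69 (adjusted p = 0.0347). In class 4 the difference was -2.05, and in class 8 it was 1.96 (adjusted p of 1 and 0.757). Over all classes it was 1.64 (SE 1.02, adjusted p = 0.612, exact permutation p = 0.2). Whether the class 4 minus class 2 difference itself differed by genotype was tested in the same fit: it was 0.36 in WT and -6.69 in TGA, an interaction of -7.05 (SE 2.47, adjusted p = 0.767).

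Rbp4 was above 0 in 8 WT and 10 TGA libraries. WT class 2 stood at 7.09, 0, 6.73 and 6.20, WT class 4 at 7.49, 3.76, 0 and 6.18, and WT class 8 at 0, 5.15, 0 and 2.69. TGA class 2 stood at 8.01, 7.40, 7.07 and 7.40, TGA class 4 at 6.58, 0, 3.02 and 7.92, and TGA class 8 at 0, 6.33, 3.71 and 7.95. The genotypes overlapped in every class, and TGA number 4 was high in all 3. The difference over all classes was 1.67 (SE 1.09, adjusted p = 0.615).

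Ambp had its highest values in class 2 of both genotypes. WT class 2 stood at 3.97, 4.53, 3.81 and 0, WT class 4 at 1.81, 2.04, 0 and 0, and WT class 8 at 0, 1.62, 0 and 0. TGA class 2 stood at 0, 5.94, 3.84 and 5.90, TGA class 4 at 0 in all 4 libraries, and TGA class 8 at 5.66, 0, 0.48 and 2.88. It was above 0 in 6 of 12 libraries of each genotype, and its TGA minus WT difference of 0.58 (SE 0.90, adjusted p = 0.85) was the smallest of the 8.

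Hpx was the member listed at 0 most often, in 14 of 24 libraries. WT class 2 stood at 2.49, 0, 0 and 0, WT class 4 at 6.03, 7.94, 0 and 0, and WT class 8 at 0 in all 4. TGA class 2 stood at 0, 3.96, 1.19 and 4.38, TGA class 4 at 0, 0, 4.22 and 0, and TGA class 8 at 0, 6.22, 0.93 and 6.80. In class 8 Hpx was thus above 0 in 3 TGA libraries and in 0 WT libraries. The difference was 3.49 (95% interval 0.22 to 6.76, limma adjusted p = 0.493, exact permutation p = 0.143). TGA number 1 was at 0 in every class. Over all classes the difference was 0.94 (SE 0.93, adjusted p = 0.749).

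**Figure D3:**
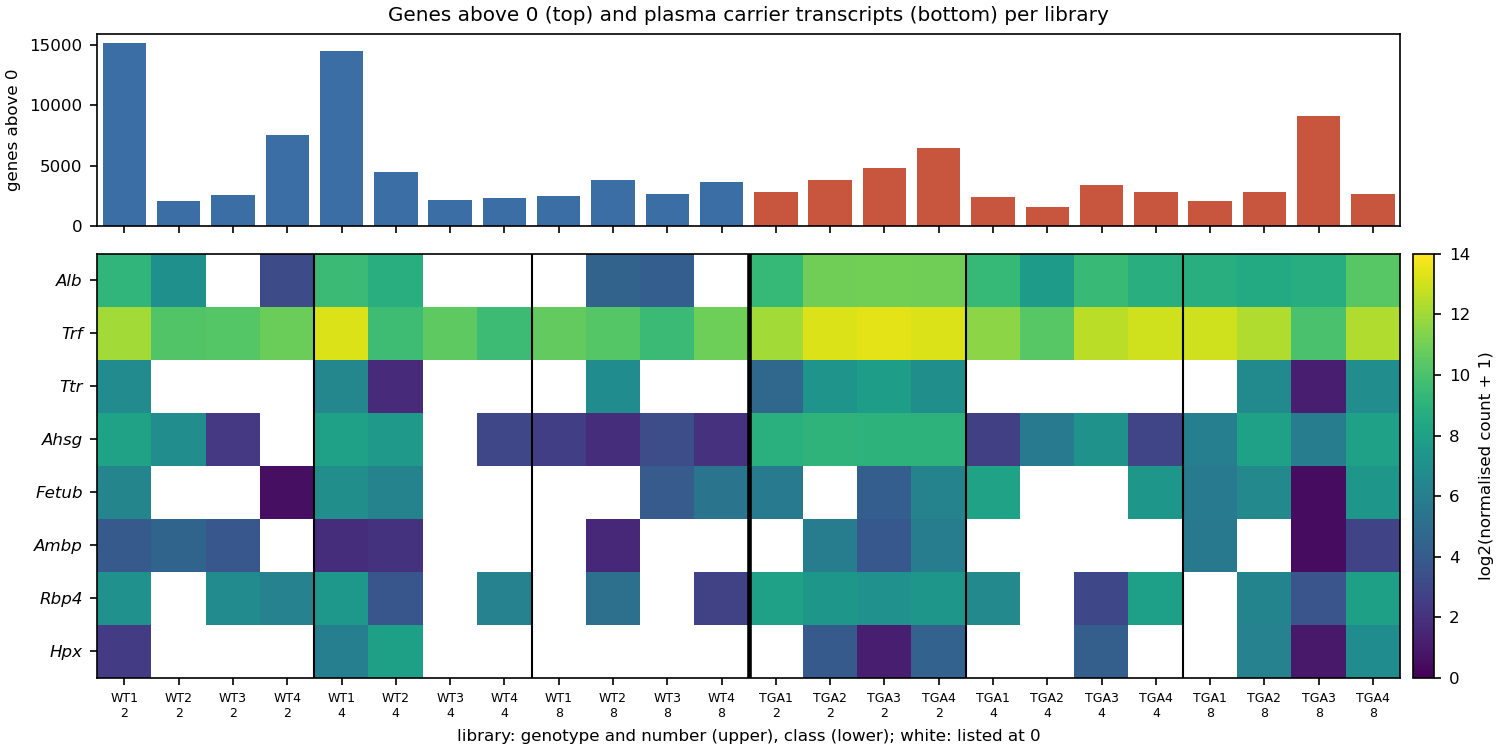
Number of genes above 0 in each library (bars, vertical axis from 0) and the values of the 8 members in the same libraries (colours, log2(normalised count + 1), white for 0), in the order genotype, class, number. WT number 1 had 15147 and 14469 genes above 0 in classes 2 and 4 and all 8 members above 0 there, and WT number 3 of class 4 had 1 member above 0.

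More members were detected in TGA than in WT in classes 2 and 8, but not in class 4. In class 2, 29 of 32 member values were above 0 in TGA and 20 of 32 in WT. In class 4 the counts were 18 and 20, and in class 8 they were 28 and 16. Of all genes tested, 55.1% and 54.9% of values were above 0 in class 2 (TGA and WT), 32.7% and 48.8% in class 4, and 45.4% and 38.3% in class 8. The WT percentages of classes 2 and 4 include WT number 1, at 98.5% and 94.9%. The other WT libraries held 30.5% to 55.7% in class 2 and 27.4% to 43.5% in class 4. TGA libraries held 40.9% to 67.1% in class 2 and 23.3% to 37.9% in class 4. Within TGA, class 4 was lowest both for the members and for all genes, and within WT class 8 was. The part of detection in the class 4 values was not tested.

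Over the whole genotype comparison, 3 of 8 members had an unadjusted limma p under 0.05, as did 433 of the 4875 genes tested. Within class 2, 0 members passed (limma, against 0.103% of genes tested). There 4 members had an unadjusted p under 0.05, as did 425 of all genes. Within class 4, 0 passed (against 0.0205%) and 1 had an unadjusted p under 0.05, as did 207 of all genes. Within class 8, 0 passed (against 0.0205%) and 4 had an unadjusted p under 0.05, as did 476 of all genes. The count of members with a positive difference was 8 of 8 in class 2, 5 of 8 in class 4 and 8 of 8 in class 8, against 53.9%, 41.4% and 52.6% of all genes tested.

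Between classes, over both genotypes, 0 members passed the test. For class 8 against class 2 the background was 0.0205% of genes tested, and 2 members had an unadjusted limma p under 0.05. Of the 4875 genes tested, 359 had such a p. Rbp4 differed by -3.01 (95% interval -5.62 to -0.40, adjusted p = 0.565), with a like value in both genotypes (-3.05 in WT and -2.97 in TGA), and an exact permutation of class within genotype gave p = 0.0388. Ambp differed by -2.17 (-4.18 to -0.16, adjusted p = 0.638, exact permutation p = 0.0678). Of the 8 members 6 had lower values in class 8, as did 2736 of the 4875 genes tested. The median was -1.73 over the members and -0.16 over all genes, and Fetub and Hpx differed by 0.80 and 0.24.

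For class 4 against class 2 the background was 0.308%, and again 2 members had an unadjusted limma p under 0.05. Of the 4875 genes tested, 663 had such a p. Ambp differed by -3.02 (95% interval -5.03 to -1.01, adjusted p = 0.187), by -2.12 in WT and -3.92 in TGA (exact permutation p = 0.0122). Ttr differed by -3.16 (-5.65 to -0.67, adjusted p = 0.267, exact permutation p = 0.0673). The interval of Alb ran from -3.44 to 1.43 and that of Trf from -1.59 to 0.34 (adjusted p of 0.725 and 0.565). Across the 8 members and 7 comparisons, 56 exact tests were made, and 7 of them gave a p under 0.05.

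For class 8 against class 4, 0 members passed, with 0 of 4875 genes called. An unadjusted limma p under 0.05 was found for 0 members and 321 of all genes tested. The tests of whether class differences differ by genotype also called 0 members, and 0 genes of 4875 in each. For class 8 against 2, class 4 against 2 and class 8 against 4, 0, 2 and 1 members had an unadjusted limma p under 0.05. Of all genes tested, 198, 309 and 228 had such a p. The smallest of these p-values belonged to Ttr for class 4 against 2 (0.00651, adjusted p = 0.767).

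The members were alike across libraries to differing degrees. All 28 pairs had a positive Pearson r over the 24 libraries, from 0.08 (Fetub and Ambp) to 0.82 (Alb and Ahsg), with a median of 0.48. The neighbouring fetuin genes Ahsg and Fetub had an r of 0.36, and Ttr and Rbp4 one of 0.62. These values are descriptions, because the libraries share genotype, class and detection, and the r of other gene pairs was not computed. Among genes that are not members, the mean profile of the members was most like those of Tmbim6, an ER membrane protein (r = 0.89), Selenbp2 (0.88), the cytochrome P450 Cyp2a12 (0.88), the alpha-1-antitrypsin Serpina1b (0.87) and Tef, a transcription factor with circadian expression (0.87). The single gene most like Trf was Apoa1, which encodes an apolipoprotein of HDL (r = 0.91), and most like Ttr was the lysosomal protease Ctsl (0.91). For Alb it was Selenbp2 (0.88), for Ahsg Tef (0.83), for Hpx the fibrinogen chain gene Fgb (0.82), for Ambp Taf15 (0.81), for Fetub Gnmt (0.78) and for Rbp4 the ER chaperone Hsp90b1 (0.77). These genes were above 0 in 10 (Fgb) to 24 (Apoa1) of the 24 libraries, and in 11 for Tmbim6, Ctsl and Taf15. Values at 0 thus enter each r but that of Apoa1.

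Albumin has relatives in the same gene family, and the fetal one had the opposite direction of values. Afp (alpha-fetoprotein), silenced in liver after birth, was listed at 0 in 12 of 12 TGA libraries and was above 0 in 9 of 12 WT libraries. WT class 2 stood at 0.28, 3.81, 2.91 and 0, WT class 4 at 0, 1.62, 0 and 5.60, and WT class 8 at 4.18, 1.62, 3.17 and 1.68. In 5 of these 9 libraries the value was the most frequent value above 0 of that library, one that many genes share. The difference was -2.07 and did not pass (limma adjusted p = 0.315). The vitamin D carrier Gc was above 0 in 6 WT and 9 TGA libraries (difference 2.26, adjusted p = 0.526), and afamin (Afm), next to Afp, in 5 and 2.

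**Figure D4:**
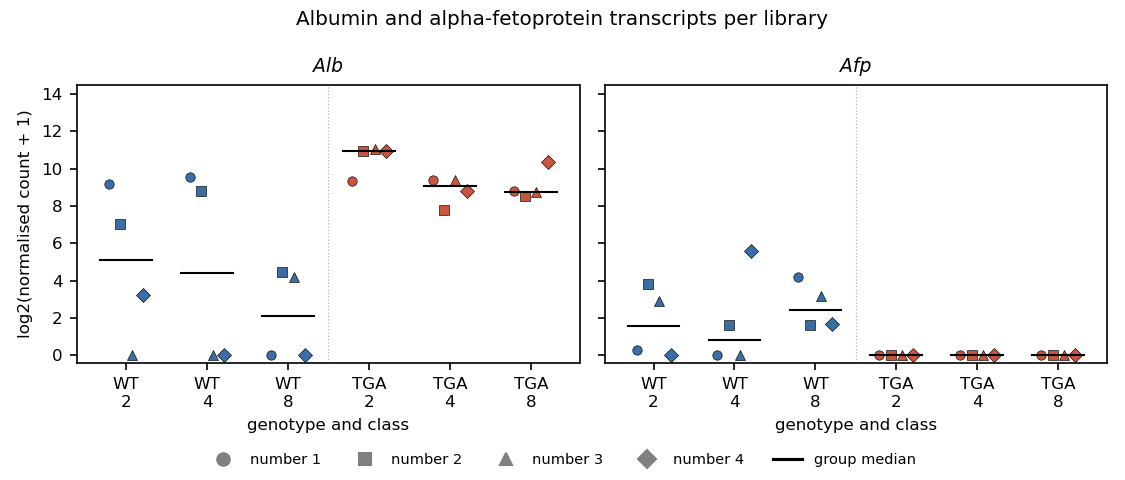
Alb (left) and Afp (right) in each library, as log2(normalised count + 1) on the vertical axis, by genotype and class (4 libraries per group, the marker shape gives the number, the line is the group median). All 12 TGA libraries are at 0 for Afp and between 7.76 and 11.05 for Alb.

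Other genes of the same system were counted in the genotype comparison over all classes, where 0.492% of all genes passed. An unadjusted limma p under 0.05 was found there for 433 of the 4875 genes tested. Of 21 other plasma carriers, 9 were tested and 0 passed (limma, 3 at an unadjusted p under 0.05). Their median difference was 1.21, with Igfbp4, a carrier of insulin-like growth factors, at 3.04 (adjusted p = 0.256). Of 11 relatives and partners of the fetuins and bikunin, 8 were tested, 0 passed and 3 had an unadjusted p under 0.05, with a median of 1.66. Itih1, a heavy chain that is joined to bikunin, differed by 3.52 (adjusted p = 0.13), Itih3, another heavy chain, by 3.06 (0.326), and Pzp, a protease inhibitor, by 2.21 (0.542). Itih1 was above 0 in 2 WT and 10 TGA libraries, and it passed without WT number 1 (4.68, adjusted p = 0.0103).

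Of 22 genes for receptors and for iron, heme and retinol handling, 9 were tested, 0 passed and 3 had an unadjusted p under 0.05, with a median of 0.39. Tfr2, the transferrin receptor that senses iron in hepatocytes, differed by 3.18 (adjusted p = 0.228) and was above 0 in 4 WT and 10 TGA libraries. It passed without WT number 1 (4.10, adjusted p = 0.0221). Lrp1, the endocytic receptor for the hemopexin and heme complex, differed by 2.17 (0.468), and the ferritin chain gene Fth1 by 2.30 (0.532).

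Of 13 transcription factors of liver promoters, 9 were tested, 0 passed and 1 had an unadjusted p under 0.05, with a median of 0.50. Hnf4a differed by 2.08 (adjusted p = 0.526) and Prox1 by 1.63 (0.613). Of 22 genes of the secretory pathway, through which all 8 proteins leave the cell, 10 were tested, 0 passed and 2 had an unadjusted p under 0.05, with a median of 1.27. The ER chaperones Hsp90b1 and Hspa5 differed by 3.36 (adjusted p = 0.224) and 3.06 (0.309), and Sec61a1, of the channel into the ER, by 1.61 (0.555). Without WT number 1 both chaperones passed (4.13 and 4.25, adjusted p of 0.0332 and 0.0223), as did Igfbp4 (4.03, 0.0243) and Itih3 (4.38, 0.0181). Without that number 95 of 4875 genes passed in place of 24, so these calls stand against a larger background. Itih1, Tfr2 and Hsp90b1 also passed with the number of genes above 0 as a covariate, and when the 4 libraries that had more than 7000 genes above 0 were left out.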

How the data were processed

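RNA-seq was analysed from 24 liver libraries. Per the labels' protocols, RNA was purified with a kit for fixed, embedded tissue and sequenced from one end with 75 bp reads. The submitters' processing notes name TopHat, edgeR and the build mm9. For the counting program, strand setting, annotation and normalization, nothing is given in the sources used here. The authors deposited 1 table of values on a log scale, taken here as natural logs of quantile-normalised counts after adding 1. This unit is inferred and not stated. The highest value is identical in 20 libraries and lower in the others. In the 2 libraries with the most genes detected, 942 and 655 genes sit within 1e-09 of 2 ln(2)/24. That is the mean of ln(count + 1) over 24 libraries with a count of 1 in 2 of them and 0 in the others. Of the deposited symbols, 33250 of 35974, and all 8 members, matched the reference lists.

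Values were converted to log2. The tested genes reached a deposited value of 1 in 4 or more libraries (4875, all 8 members among them: a member could pass through 1 group alone). limma 3.58.1 (R 4.3.3, limma-trend) was fitted with a mean for each of the 6 groups of libraries, and for genotype over all classes to 8 means, 1 per genotype and number, with Benjamini-Hochberg adjustment over all genes and a threshold of 0.05. In the fit to 8 means the prior weighed 152 degrees of freedom against 6 residual ones, so the spread pooled over genes sets most of each SE. The intervals are limma's. Exact permutation tests are two-sided, over all 70 assignments of 4 against 4 or, for classes, all 4900 within genotype, and their p-values are not adjusted. Depth per library is unknown, and the number of libraries limits the precision.

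The members and gene lists were chosen with earlier results of these data known. Named genes are the 8 members, the 3 genes of each list with the smallest genotype p, the relatives of albumin, and the genes most like the members over 24 libraries (1 gene that this rule names is not reported here). Alternatives were another filter, pseudocount, scaling, covariate, prior, block and set of libraries. Promoter windows come from RefSeq on GRCm38.p6, another build than that of the table, and are used for sequence only.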

Additional observations from a re-analysis of the deposited data

Results flagged for a closer look

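In 13 of 64 sets of 4 values (the 8 members in 6 groups, and their means over each genotype's 4 numbers), 1 value lay far from the other 3 relative to the range of the set. The cutoff takes about 1 in 20 sets by chance where values are continuous, and with many values at 0 that rate does not hold here, so the 13 are not set against it. In 5 of them 1 library alone was above 0. These were Ttr in WT class 2 (number 1 at 6.74) and WT class 8 (number 2 at 6.81), Ambp in WT class 8 (number 2 at 1.62), and Hpx in WT class 2 (number 1 at 2.49) and TGA class 4 (number 3 at 4.22). Fetub in WT class 2 was at 6.38 in number 1 and at most 0.60 in the others. In 2 sets 1 library alone was at 0: Ambp in WT class 2 number 4 (0, the others 3.81 to 4.53) and Rbp4 in WT class 2 number 2 (0, the others 6.20 to 7.09).

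TGA number 1 was flagged as the lowest of TGA class 2 for 3 members. These were Alb at 9.36 (the others 10.94 to 11.05), Trf at 12.08 (13.27 to 13.42) and Ahsg at 8.86 (9.06 to 9.08). The gap of Ahsg was small, and was flagged because the other values lay so close together. TGA number 4 was the highest for Alb in class 8, at 10.35 (the others 8.54 to 8.79), and for the mean of Rbp4 over the classes, at 7.76 (4.58 to 4.86).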

How the results depend on the processing

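The count of members called between genotypes over all classes (2, Alb and Trf) was 1 with the filter at 12 libraries, 1 with a pseudocount of 10 and 0 with a prior that does not depend on the mean. Leaving out 1 genotype and number at a time gave 1 to 3 there, 0 to 3 in class 2 and 0 to 1 in class 8, and 0 in class 4. Over all genes the genotype count of 24 became 9 with no filter, 42 with the number of genes above 0 as a covariate, 84 without the 4 libraries with over 7000 genes above 0, 5 with the prior that does not depend on the mean, and 10 to 95 with 1 genotype and number left out. The 0 members called between classes and for the interactions stayed at 0 in every alternative run. Signs changed for values that had not passed: Ambp in class 2 was -0.26 without the 4 libraries with over 7000 genes above 0, Ahsg in class 4 was -0.45 with a pseudocount of 10, and without the 4 libraries with the fewest genes above 0, chosen after the data were seen, Ahsg in class 4 was -1.92 and Alb for class 4 against 2 was 0.30. Leaving out 1 genotype and number gave -0.19 to 2.15 for Ambp in class 2, -1.54 to 1.13 for Ahsg, -0.82 to 1.87 for Fetub and -1.43 to 1.48 for Rbp4 in class 4, -0.13 to 1.96 for Fetub in class 8 against 2, and -0.10 to 1.35 for Fetub and -0.073 to 1.28 for Hpx in class 4 against 2. In each case the cause was not tested. Ttr, Ambp and Hpx did not reach the filter at 12 libraries and have no value there. With the number as a replicate block across genotypes, 2 members were called over all classes and 0 in each class, and with genotype and number as a block, 0 members between classes and for the interactions. Libraries of one genotype and number deviated together in 2 of 24 pairs (r over 0.1, range -0.10 to 0.43), which falls short of every pair, so the numbers were not taken to pair the libraries. Within the genotype, 12 of 24 libraries were closest to one of their own number. The highest r, 0.43, was that of WT number 1 in classes 2 and 4, the 2 libraries with the most genes above 0. Whether some libraries share a source was not tested. The genotype comparison over all classes does not depend on this decision, since it counts the 3 libraries of a genotype and number as 1 mean.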

Other observations

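Trf was above 0 in all 24 libraries, and so also where Alb was listed at 0. In the 5 WT libraries with Alb at 0, Trf stood between 9.59 and 10.91, Apoa1 between 7.87 and 9.95 and the cytochrome P450 Cyp2e1 between 6.35 and 9.47, and the most frequent value above 0 of these libraries was 1.68 to 3.90. Whether the reads counted for Trf in these libraries come from transferrin mRNA was not tested. The same value often recurred between libraries, as can occur where quantile normalization, which is inferred here, sets a value by its rank. Trf stood at 13.27 in TGA numbers 2 and 4 of class 2 and in WT number 1 of class 4. Annotated genes that overlap members are Gm16090 at Ttr and Gm30505 at Ahsg, each above 0 in 2 of 24 libraries (at most 2.85 and 1.36), and the strand setting of the counts is not known.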
